A study of Mus musculus with 24 samples.

Results

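The GDNF family ligands and their receptors were examined in RNA-seq data from the striatum of R6/1 mice, a model of Huntington's disease, and of wild type (WT) mice. The 8 genes were Gdnf, Nrtn, Artn, Ret, Gfra1, Gfra2, Gfra3 and Gfra4, which are 3 ligands and 5 receptors among the 24340 genes shared by all tables. Each was found by its symbol. The set was selected on earlier results for these same FPKM values (mapped fragments scaled to transcript length and library size), so every difference between groups given for its members is a description without a test. The 24 libraries comprised 5 WT-vehicle, 6 R6/1-vehicle, 6 WT-RGFP109 and 7 R6/1-RGFP109 mice. The R6/1 animals were hemizygous for a transgene with exon 1 of human HTT and an expanded CAG repeat, on a C57BL/6J background, and the WT animals lacked the transgene. RGFP109, an inhibitor of the histone deacetylases HDAC1 and HDAC3, was injected intraperitoneally at 30 mg/kg body weight, 5 times a week for 3 weeks, beginning at 11 to 14 weeks of age. Vehicle mice received the solvent, dimethyl sulfoxide in saline, on the same schedule, and tissue was taken 18 h after the last injection.

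The tables held 1 FPKM value per group, computed by the authors over all libraries of the group, and each group appeared in 3 tables. The 3 values of a group are the same libraries scaled 3 times. They are not replicates, and they differed by a common factor of at most 3.92%. These values carry no spread between mice, and the FPKM values per mouse that the study's supplement lists for Nrtn, Gfra2 and Gdnf were not used here. Whether a difference exceeds the variation between animals was therefore not tested, and no p-value is given. Ratios were taken within the table of the pair, on the scale log2(FPKM + 0.05), which understates differences of low genes. An absolute log2 ratio above 0.5, equal to 1.41-fold, is called past the fold, and each count of members is set beside the share of all genes with a mean of at least 1 FPKM that were past it.

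GDNF family ligands are secreted dimers that bind a co-receptor anchored in the outer leaflet of the membrane, and the ligand and co-receptor together engage the tyrosine kinase Ret. GDNF (Gdnf) prefers the co-receptor encoded by Gfra1, neurturin (Nrtn) that of Gfra2 and artemin (Artn) that of Gfra3, whereas the Gfra4 product binds persephin. The ligands are best known in the basal ganglia as survival factors for midbrain dopamine neurons, which carry Ret and send axons into the striatum while their cell bodies lie outside it. GDNF of the adult mouse striatum is known to come largely from parvalbumin interneurons.

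In R6/1-vehicle striatum, Nrtn and Gfra2, a ligand and its preferred co-receptor, were 3.22-fold and 2.73-fold lower than in WT-vehicle, and Gdnf was 1.56-fold lower. Gfra1, Gfra4 and Ret lay within 1.1-fold of WT-vehicle. With RGFP109, Gfra2 in R6/1 mice was 1.41-fold above R6/1-vehicle, whereas Nrtn had nearly the same value in both R6/1 groups.

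RefSeq promoter windows of build GRCm38.p6, from 250 bases before to 50 bases after a transcription start, were matched for 5 of the 8 members, namely Gdnf, Nrtn, Artn, Gfra1 and Gfra4. Gfra2, Gfra3 and Ret were not matched. The windows of Nrtn and of the first Gdnf start are shown because these ligands were lower in R6/1-vehicle, and those of Gfra1 and of the second Gfra4 start because their levels differed least between the groups. Capitals mark matches, on either strand, to the GC box GGGCGG, the TATA box TATAAA, the E-box CAGCTG or the cAMP response element core TGACG. The windows lie at chr17:56757499-56757798 on the minus strand (Nrtn), chr15:7809798-7810097 on the plus strand (Gdnf), chr19:58455349-58455648 on the minus strand (Gfra1) and chr2:131043039-131043338 on the minus strand (Gfra4).
Nrtn: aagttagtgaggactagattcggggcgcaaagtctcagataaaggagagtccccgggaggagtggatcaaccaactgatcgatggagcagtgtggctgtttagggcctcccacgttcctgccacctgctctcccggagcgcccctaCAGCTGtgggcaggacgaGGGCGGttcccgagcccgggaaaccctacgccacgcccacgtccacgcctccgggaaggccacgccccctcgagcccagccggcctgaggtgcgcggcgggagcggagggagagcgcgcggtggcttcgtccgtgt
Gdnf: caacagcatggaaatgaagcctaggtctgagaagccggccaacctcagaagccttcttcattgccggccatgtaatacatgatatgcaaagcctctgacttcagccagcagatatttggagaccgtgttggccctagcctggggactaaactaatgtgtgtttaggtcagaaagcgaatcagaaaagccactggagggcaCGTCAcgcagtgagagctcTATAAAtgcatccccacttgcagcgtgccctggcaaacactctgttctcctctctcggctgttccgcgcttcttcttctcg
Gfra1: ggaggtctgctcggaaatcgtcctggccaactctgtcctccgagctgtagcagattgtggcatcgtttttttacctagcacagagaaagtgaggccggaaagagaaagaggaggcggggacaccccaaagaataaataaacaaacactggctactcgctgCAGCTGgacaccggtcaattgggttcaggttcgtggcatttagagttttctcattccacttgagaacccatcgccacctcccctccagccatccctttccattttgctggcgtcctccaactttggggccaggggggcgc
Gfra4: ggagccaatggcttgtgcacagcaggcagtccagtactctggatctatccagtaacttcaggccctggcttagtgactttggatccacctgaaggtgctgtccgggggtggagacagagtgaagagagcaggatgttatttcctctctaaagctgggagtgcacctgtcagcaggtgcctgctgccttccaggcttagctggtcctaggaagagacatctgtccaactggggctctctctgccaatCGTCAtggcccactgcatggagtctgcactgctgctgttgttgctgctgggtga

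The Nrtn window was 66.7% G or C with 28 CpG dinucleotides, more than 85.0% and 85.8% of all promoters, against medians of 52.7% and 7 over the 32851 promoter windows. It held 1 GC box and 1 E-box, which occur in 35.7% and 16.3% of the windows. The window of the first Gdnf start was 51.7% G or C with 11 CpG and held 1 TATA box and 1 response element core, found in 13.6% and 20.8% of windows. That of the second Gdnf start, not shown, had 22 CpG and no match to any of these motifs. The Gfra1 window, with 54.0% G or C and 12 CpG, held 1 E-box, and that of the second Gfra4 start, with 55.7% and 2 CpG, held 1 response element core. The window of the first Gfra4 start, not shown, had 6 CpG and held 1 E-box but no response element core. Which start was used in these samples was not examined. These matches describe the letters of the windows and do not show binding.

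The order of mean FPKM over the 4 groups was Gfra4 at 46.15, Gfra1 at 17.69, Gfra2 at 8.515, Nrtn at 2.518, Gdnf at 0.9487, Ret at 0.4851, Artn at 0.4102 and Gfra3 at 0.01023. Thus 4 of the 8 members reached 1 FPKM, among them 3 of the 4 co-receptor genes and 1 of the 3 ligands. FPKM is a level per transcript length, so these levels can be set against each other roughly. The mix of transcripts of each gene was not examined, and levels as low as that of Ret have no stated precision. The kinase gene Ret was far below the co-receptor genes Gfra1, Gfra2 and Gfra4 in each group, and above Gfra3. In WT-vehicle, Gfra1 was 38.8 times, Gfra2 27.6 times and Gfra4 102 times the level of Ret. Neighbours in this order could not be separated by a test, and Artn and Ret exchanged places between groups, with Artn at 0.4787 and Ret at 0.4381 FPKM in R6/1-vehicle. The ratio of the highest to the lowest group was 3.23 for Nrtn, 2.69 for Gfra2, 2.3 for Gdnf, 1.54 for Ret, 1.34 for Artn, 1.2 for Gfra1 and 1.1 for Gfra4.

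**Figure D1:**
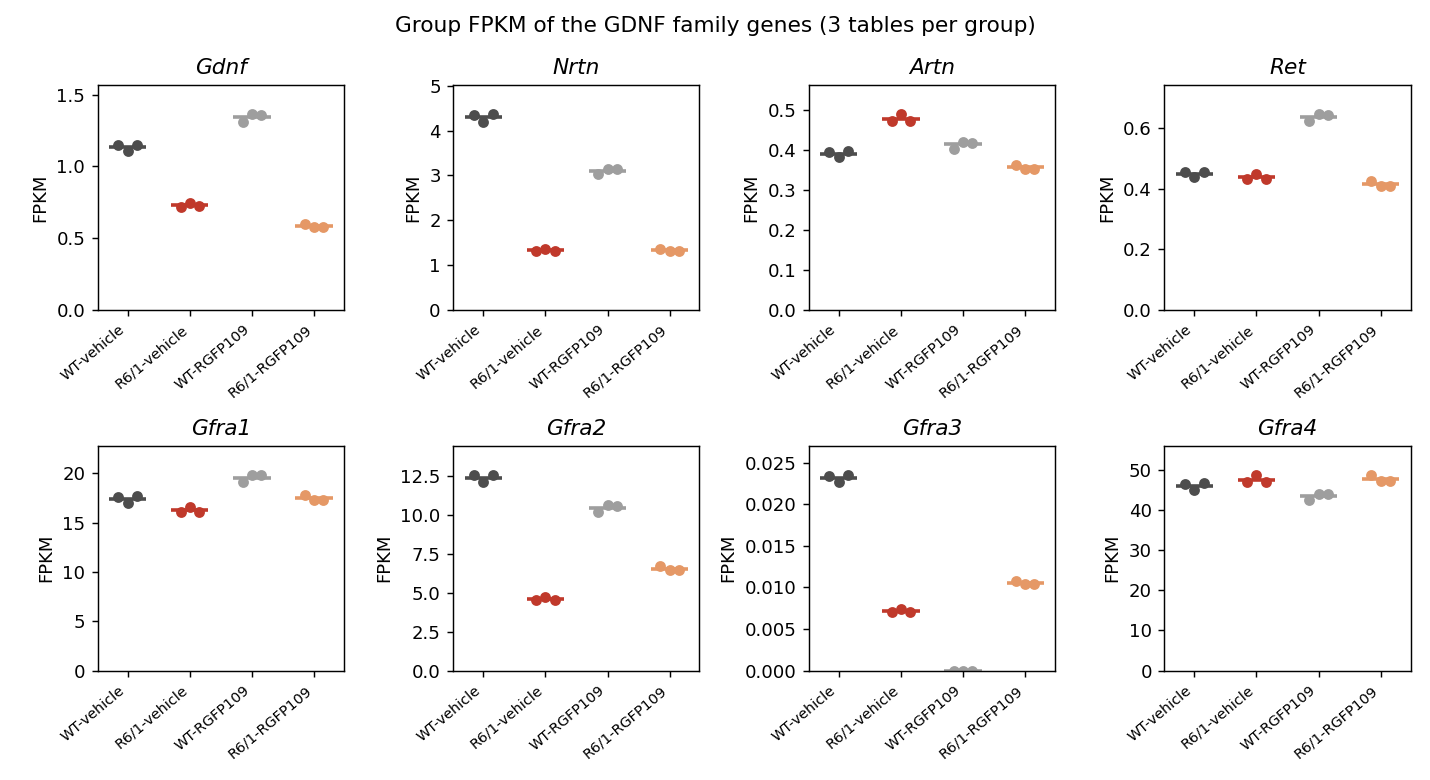
FPKM (vertical axis, linear and from 0, a separate scale per gene) of the 8 genes in the 4 groups. Points are the 3 values deposited for a group, which rest on the same libraries, and the line is their mean. Nrtn lies near 1.33 FPKM in both R6/1 groups and above 3 FPKM in both WT groups, while Gfra2 in R6/1-RGFP109 lies between R6/1-vehicle and the WT groups.

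Among the ligands, Nrtn, which encodes neurturin, averaged 4.305 FPKM in WT-vehicle and 3.098 in WT-RGFP109, against 1.332 in R6/1-vehicle and 1.335 in R6/1-RGFP109. Both R6/1 groups were low and both WT groups high. The gene lies at chr17:56751325-56757530 (mm10, minus strand). In the vehicle pair its values were 4.351 and 1.317 FPKM, a log2 ratio of -1.69, the 136th lowest of 13659 genes. Under RGFP109 the WT and R6/1 values were 3.14 and 1.322 FPKM, a log2 ratio of -1.22. The R6/1 groups had nearly equal values, 1.362 with vehicle and 1.363 FPKM with RGFP109. In WT mice, RGFP109 came with a lower value, 3.021 against 4.201 FPKM. That log2 ratio of -0.47 did not reach the fold, and 2.31% of the genes of this pair lay lower. Under RGFP109 the genotypes were thus closer in Nrtn through the WT value alone.

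Gdnf, at chr15:7810048-7837580 on the plus strand, averaged 1.137 FPKM in WT-vehicle and 1.346 in WT-RGFP109, against 0.7282 in R6/1-vehicle and 0.5842 in R6/1-RGFP109. The WT groups were again above the R6/1 groups, and the treated groups were the extremes. The log2 genotype ratio was -0.64 with vehicle and -1.17 with RGFP109, where Gdnf was 2.25-fold lower in R6/1. The treatment ratios were 0.23 in WT and -0.30 in R6/1 mice, both short of the fold. Gdnf stood below 1 FPKM in both R6/1 groups, and its vehicle ratio depended on the added constant, shrinking to -0.44 with 0.5 FPKM and to -0.32 with 1 FPKM. In bulk tissue, fewer cells of a type and less RNA per cell cannot be told apart, for these and all further differences.

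Artn, at chr4:117926160-117929763 on the minus strand, encodes artemin, known mainly from peripheral neurons. It averaged 0.3913 FPKM in WT-vehicle and 0.4142 in WT-RGFP109, against 0.4787 in R6/1-vehicle and 0.3566 in R6/1-RGFP109. Its values did not follow genotype. R6/1-vehicle was the highest and R6/1-RGFP109 the lowest group, with a log2 ratio between them of -0.38. The ratio of Nrtn to Gdnf was 3.79 in WT-vehicle and 2.3 in WT-RGFP109, against 1.83 in R6/1-vehicle and 2.28 in R6/1-RGFP109, so neurturin mRNA was the higher of the pair in each group.

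Among the receptors, Gfra2, the neurturin co-receptor gene at chr14:70890107-70979840 on the plus strand, averaged 12.41 FPKM in WT-vehicle and 10.48 in WT-RGFP109, against 4.616 in R6/1-vehicle and 6.559 in R6/1-RGFP109. R6/1-RGFP109 lay between R6/1-vehicle and the WT groups. In the vehicle pair the values were 12.54 and 4.559 FPKM, a log2 ratio of -1.45 that was the 198th lowest. Under RGFP109 they were 10.62 and 6.495 FPKM, a log2 ratio of -0.71.

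The treatment ratio of Gfra2 in R6/1 mice, 6.695 against 4.724 FPKM, was 0.499 on the log2 scale and thus just under the fold. It was the 214th highest of 13610 genes, 102 of which had extreme log2 ratios of 2.9 or more. It was 0.503 without the added constant and 0.504 from the other tables. It spanned 34.4% of the log2 difference between R6/1-vehicle and WT-vehicle, a share that uses the R6/1-vehicle value on both sides. For Nrtn the same share was 0.0684%. In WT mice Gfra2 was lower with RGFP109, 10.22 against 12.11 FPKM, a log2 ratio of -0.24. The treatment ratio of Gfra2 in R6/1 minus that in WT was 0.74, the 245th highest of 13715 genes, of which 3.06% were above 0.5. For Nrtn this difference was 0.47, for Gdnf -0.53 and for Ret -0.53, and none of them could be tested.

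**Figure D2:**
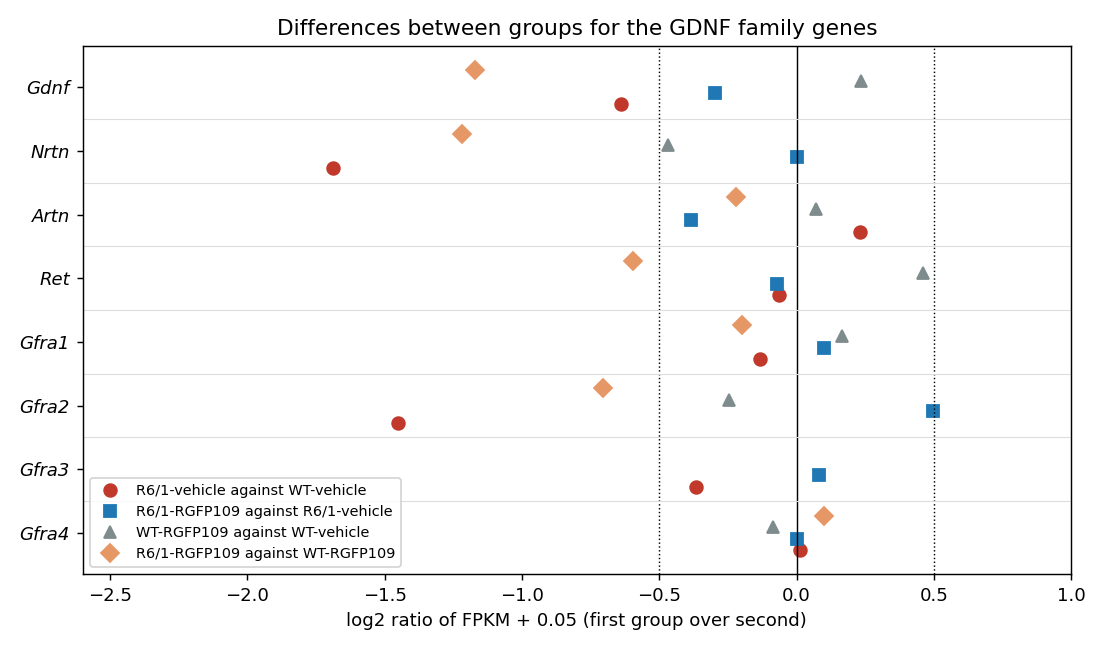
Log2 ratios of FPKM + 0.05 (horizontal axis) for the 8 genes in 4 comparisons, 1 symbol per comparison, with dotted lines at the fold of 0.5 in each direction. Gfra3 is omitted where WT-RGFP109, listed at 0, takes part. Nrtn and Gfra2 lie furthest left for R6/1-vehicle against WT-vehicle (-1.69 and -1.45), and Gfra2 for R6/1-RGFP109 against R6/1-vehicle lies on the right-hand line.

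Gfra1, the preferred co-receptor gene of GDNF at chr19:58235581-58455398 on the minus strand, averaged 17.44 FPKM in WT-vehicle and 19.58 in WT-RGFP109, against 16.27 in R6/1-vehicle and 17.47 in R6/1-RGFP109. The groups were close together, and the log2 ratios were -0.13 and -0.20 for genotype and 0.16 and 0.10 for treatment in WT and R6/1 mice. An antisense gene, Gm16277, overlaps it by 467 bases, and whether counting used strand is not given in the sources used here. The ratio of Gfra1 to Gfra2 was 1.41 in WT-vehicle and 3.53 in R6/1-vehicle, and it was 1.87 in WT-RGFP109 and 2.66 in R6/1-RGFP109. Gfra4, at chr2:131039632-131043088 on the minus strand, was the most abundant member, at 45.98, 47.51, 43.43 and 47.67 FPKM in WT-vehicle, R6/1-vehicle, WT-RGFP109 and R6/1-RGFP109. Its log2 ratios were between -0.10 and 0.10 in all 6 comparisons. The microRNA gene Mir6973b lies within it.

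Ret, the shared signalling kinase gene at chr6:118151748-118197744 on the minus strand, averaged 0.4495 FPKM in WT-vehicle and 0.6378 in WT-RGFP109, against 0.4381 in R6/1-vehicle and 0.4149 in R6/1-RGFP109. WT-RGFP109 stood above 3 groups of like value. The treatment ratio in WT mice was 0.46, or 0.504 without the added constant, and the genotype ratio under RGFP109 was -0.60. Th, which encodes the rate-limiting enzyme of dopamine synthesis, had a like pattern, at 4.4, 4.411, 9.056 and 3.802 FPKM in WT-vehicle, R6/1-vehicle, WT-RGFP109 and R6/1-RGFP109. Of the 4 midbrain dopamine neuron genes examined (Th, Slc6a3, Slc18a2 and Ddc), 3 reached 1 FPKM, and of these Th alone was past the fold in WT-RGFP109 against WT-vehicle. The dopamine transporter gene Slc6a3 was low in each group, with 0.2718 FPKM in WT-RGFP109 and 0.08639 to 0.1108 in the others. Their summed level was 11.83, 12.25, 16.28 and 12.35 FPKM in the same order. Olfactory bulb markers were also higher in WT-RGFP109, with 2 of 2 genes at 1 FPKM or more past the fold and a summed level of all 4 of 13.51 FPKM against 4.174 to 7.005 in the other groups. The thalamus list also had its highest summed level in WT-RGFP109, at 14.88 FPKM against 11.85 to 13.07 in the other groups. Of its 3 genes at 1 FPKM or more, 1 was past the fold in WT-RGFP109 against WT-vehicle. The part of these markers in the Ret value was not tested. Gfra3, the artemin co-receptor gene, was near the bottom of the tables, at 0.02324, 0.007169 and 0.01052 FPKM in WT-vehicle, R6/1-vehicle and R6/1-RGFP109, and it was listed at 0 in WT-RGFP109. No fold is given against that value.

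In R6/1-vehicle against WT-vehicle, the comparison of genotype without drug, 3 of 8 members were past the fold and all 3 were lower, namely Nrtn, Gfra2 and Gdnf. Of genes with a mean of at least 1 FPKM, 14.3% were past it, 10.3% lower and 3.98% higher. Over all 24340 genes the share was 16.6%. The counts of members include members below 1 FPKM, which the first share leaves out. The median log2 ratio was -0.25 over the 8 members and -0.0067 over genes with at least 1 FPKM. In R6/1-RGFP109 against R6/1-vehicle, which asks what the drug did in the model, 0 of 8 were past the fold. The share was 3.0% of genes with at least 1 FPKM (1.57% higher, 1.43% lower) and 6.09% of all 24340 genes. The members' median was 0.0013 and that of genes with at least 1 FPKM 0.0033. In WT-RGFP109 against WT-vehicle, 1 of 8 was past it, which was Gfra3 through its value of 0. The share was 3.9% of genes with at least 1 FPKM (1.74% higher, 2.16% lower) and 8.53% of all 24340 genes.

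**Figure D3:**
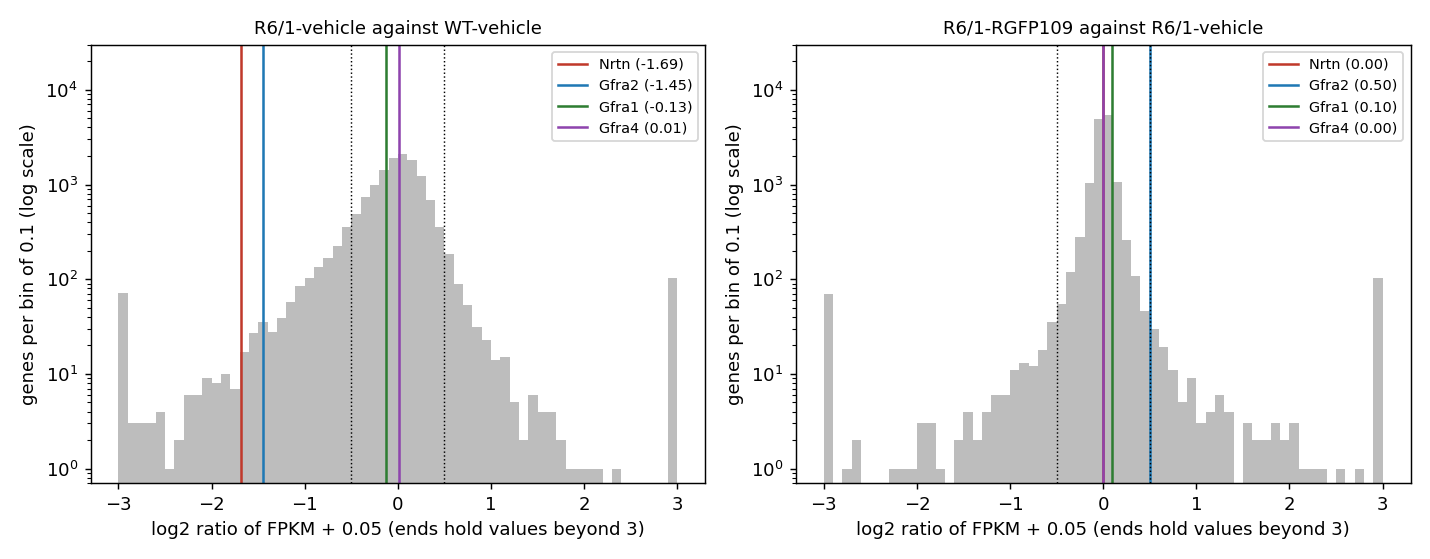
Number of genes (vertical axis, log scale) by log2 ratio of FPKM + 0.05 in bins of 0.1, for genes with a mean of at least 1 FPKM, in R6/1-vehicle against WT-vehicle (left) and R6/1-RGFP109 against R6/1-vehicle (right). The end bars also hold all values beyond 3. The low and high end bars count 72 and 104 genes on the left, and 69 and 102 on the right. Coloured lines mark the 4 members above 1 FPKM. Nrtn and Gfra2 lie in the lower tail on the left, and on the right Gfra2 alone lies off the central peak, with the lines of Nrtn and Gfra4 on top of each other near 0.

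For the genotypes under drug, R6/1-RGFP109 against WT-RGFP109, 4 of 8 members were past the fold, all lower (Nrtn, Gdnf, Gfra2 and Ret). The share was 12.3% of genes with at least 1 FPKM (8.75% lower, 3.56% higher) and 14.6% of all 24340 genes. Compared with WT-vehicle, Nrtn, Gfra2 and Gdnf were lower in R6/1-RGFP109 at log2 ratios of -1.69, -0.95 and -0.94, which makes 3 of 8. Beside this, 14.1% of genes with at least 1 FPKM were past the fold (10.1% lower, 3.93% higher). In the crossed pair, WT-RGFP109 against R6/1-vehicle, Nrtn, Gfra2, Gdnf and Ret were higher at 1.22, 1.21, 0.87 and 0.52, which makes 4 of 8. Beside this, 12.4% of genes with at least 1 FPKM were past the fold (8.85% higher, 3.6% lower). These comparisons share groups, so their counts are not independent of each other.

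Most genes of the striatal neuron marker lists were also lower in R6/1-vehicle than in WT-vehicle. The midbrain dopamine list, by contrast, had a median log2 ratio of 0.028 in this pair. Of 12 striatal projection neuron markers, 10 were past the fold and lower in R6/1-vehicle, with a median log2 ratio of -1.31. Their summed level was 3623 and 3491 FPKM in WT-vehicle and WT-RGFP109 and 1453 and 1309 FPKM in R6/1-vehicle and R6/1-RGFP109, which shows the labelled tissue in each group. Penk, which encodes the enkephalin precursor, was at 1102 FPKM in WT-vehicle and 279.3 in R6/1-vehicle. Parvalbumin interneuron markers (Pvalb, Pthlh and Cox6a2) were lower in 3 of 3 cases, with a median of -0.996 in the vehicle pair and -0.95 under RGFP109. Pvalb itself was at 43.21, 24.5, 46.77 and 24.82 FPKM in WT-vehicle, R6/1-vehicle, WT-RGFP109 and R6/1-RGFP109. For treatment in R6/1 mice the ratios of the 3 genes were 0.015 for Pvalb, 0.103 for Cox6a2 and -0.393 for Pthlh, beside -0.30 for Gdnf. Of the cholinergic list 5 of 6 were past the fold and lower, with a median of -0.99, and of the somatostatin list 3 of 4, with a median of -0.88. Their part in the values of Nrtn, Gfra2 and Gdnf was not tested.

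Gfra2 shared its order of groups with the summed levels of neocortical markers and of oligodendrocyte markers. All 7 neocortical projection neuron genes were past the fold and lower in R6/1-vehicle, with a median of -0.75. In R6/1 mice all 7 had treatment ratios above 0, from 0.31 to 0.79 with a median of 0.45, and 3 were past the fold. In WT mice their median treatment ratio was -0.26, beside -0.24 for Gfra2. Their summed level was 354.4 FPKM in WT-vehicle and 326.4 in WT-RGFP109, against 199.2 in R6/1-vehicle and 253.8 in R6/1-RGFP109. Slc17a7, the vesicular glutamate transporter gene of cortical neurons, was at 294.0, 273.9, 162.9 and 202.5 FPKM, and Tbr1, a transcription factor gene, at 14.69, 13.55, 9.326 and 12.69 FPKM in the same order. The part of neocortical RNA in the Gfra2 difference was not tested. Other tissue markers also varied between the groups. The 6 choroid plexus genes summed to 1468, 316.6, 638.2 and 39.91 FPKM, and the hypothalamic peptide gene Avp was at 11.0, 9.602, 0.9954 and 9.223 FPKM in the same order. Myelin genes of oligodendrocytes were past the fold and lower in R6/1-vehicle in 4 of 5 cases (median -0.84). Their summed level was 4318, 3360, 2416 and 2740 FPKM in the same order. Their median treatment ratio was -0.39 in WT and 0.18 in R6/1 mice, and their part in the Gfra2 difference was not tested either. Astrocyte and microglia lists had medians of -0.35 and -0.28 in the vehicle pair with no gene past the fold.

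**Figure D4:**
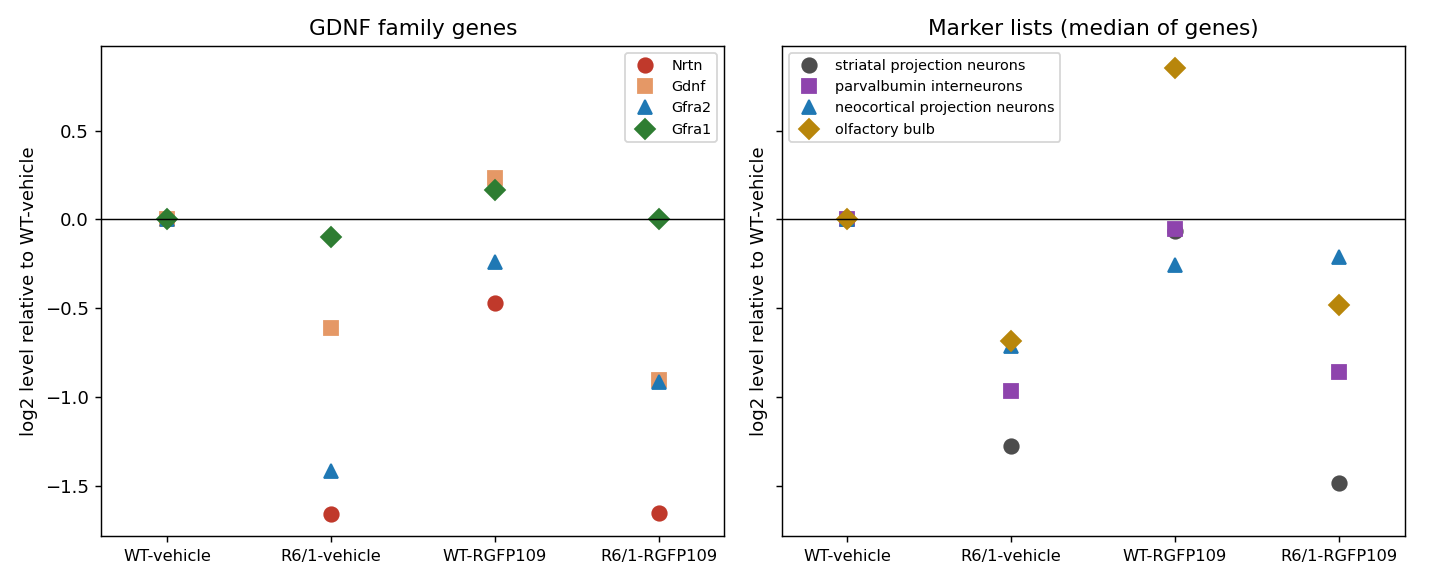
Log2 level relative to WT-vehicle (vertical axis) in the 4 groups, for Nrtn, Gdnf, Gfra2 and Gfra1 (left) and as the median over the genes of 4 marker lists with at least 1 FPKM (right). Gfra2 and the neocortical list are higher in R6/1-RGFP109 than in R6/1-vehicle, Nrtn is level between them, and Gdnf and the striatal projection neuron list are lower.

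The pathway downstream of the receptors was examined in lists. They were set beside the 14.3% of genes with at least 1 FPKM past the fold in R6/1-vehicle against WT-vehicle. Of 21 Ret adaptors and effectors at 1 FPKM or more, 1 was past it in this pair, Sos1, a Ras exchange factor gene that was higher at 8.03 against 5.449 FPKM (log2 ratio 0.52). The list's median was -0.10. Abundant members such as Ptpn11, which encodes the phosphatase SHP2, and Grb2, an adaptor gene, had ratios of -0.18 and -0.03. Of 10 negative regulators of Ret or ERK signalling, 1 was past the fold, the sprouty gene Spry2, at 17.97 against 29.47 FPKM (-0.74). Of 9 MAP kinase cascade genes, 1 was past it, Hras, at 55.19 against 92.28 FPKM (-0.77), while Map2k1 and Mapk3 were at -0.04 and -0.24.

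The list of genes that depend on Ret in the kidney bud was taken from another organ. Of its 4 members at 1 FPKM or more, 3 were past the fold and lower in R6/1-vehicle, the ETS transcription factor genes Etv4 (-0.60) and Etv5 (-0.66) and the chemokine receptor gene Cxcr4 (-0.50). Spry1, the remaining one, was at -0.08. Etv5 was at 12.94 and 12.62 FPKM in WT-vehicle and WT-RGFP109 and at 8.351 and 9.246 FPKM in R6/1-vehicle and R6/1-RGFP109. Between R6/1-RGFP109 and R6/1-vehicle, 0 genes of these 4 lists with 1 FPKM or more were past the fold, and their medians lay between -0.014 and 0.048.

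Genes listed as alternative receptors of GDNF had levels above those of Ret. The cell adhesion gene Ncam1 was at 59.07, the syndecan gene Sdc3 at 52.09 and the sorting receptor gene Sorl1 at 20.52 FPKM in WT-vehicle. None of the 3 was past the fold in R6/1-vehicle against WT-vehicle, with log2 ratios of 0.03, -0.17 and 0.25. Pspn, the persephin gene and so the ligand gene of Gfra4, was at 1.239, 1.081, 1.363 and 1.219 FPKM in WT-vehicle, R6/1-vehicle, WT-RGFP109 and R6/1-RGFP109, and Manf, a dopaminergic neurotrophic factor gene outside the family, was at 20.72, 22.39, 20.19 and 22.44 FPKM. Gfral was listed at 0 in R6/1-vehicle.

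The genes whose pattern over the 4 groups lay nearest to each member above 1 FPKM were found by the distance between centred log2 levels, among 13715 genes. With 4 points per gene, near neighbours are numerous, and the distance is a description. For Nrtn they were the activity-regulated gene Arc (distance 0.14), Syndig1l (0.16) and the integrin gene Itga5 (0.18). Arc had a log2 ratio of -1.46 in R6/1-vehicle against WT-vehicle and a treatment ratio of -0.058 in R6/1 mice. For Gfra2 they were the cholecystokinin gene Cck (0.06), the potassium channel gene Kcng2 (0.088) and the natriuretic peptide gene Nppc (0.0912), with treatment ratios in R6/1 mice of 0.49, 0.47 and 0.52. Gfra1 was nearest to Phtf2, 5430402O13Rik and Cited1, and Gfra4 to Srsf5, Usp40 and Sssca1. Between members, Gfra1 and Gfra4 were 0.29 apart and Gfra2 and Nrtn 0.54 apart.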

How the data were processed

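Striatal RNA of 24 mice was sequenced with single-end reads from TruSeq libraries in pools whose members the labels do not give. The authors aligned the reads with STAR 2.5.0b to RefSeq transcripts of mm10 and deposited FPKM values from Cufflinks and Cuffdiff 2.2.1, with 1 value per group in each of 6 pairwise tables. The headers name the R6/1 groups as mutant. Columns with the authors' own fold changes, test statistics, p-values, q-values and significance calls were not used. Counts of reads were not analysed here, so depth is unknown and intervals for counting error are not given.

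The 24340 genes present in all 6 tables were kept. Log2 ratios used a pseudocount of 0.05 FPKM. Background shares used genes with a mean of at least 1 FPKM in the pair. Coordinates are those of the tables, with 1 added to the start. Levels are means of the 3 values of a group. The calculation was run on simulated data, in which all changes were past the fold and in expressed genes. That run gives no precision for low levels or for ratios near the fold. Python 3.11.15, numpy 2.4.6 and pandas 2.3.3 were used.

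The members, the pathway and marker lists and the alternatives were chosen with earlier results of these data known. Named were all 8 members, pathway genes past the fold with at least 1 FPKM in R6/1-vehicle against WT-vehicle or R6/1-RGFP109 against R6/1-vehicle, otherwise up to 4 genes per pathway list and 2 per marker list by mean FPKM, and the 3 genes nearest in pattern. Slc6a3, Gfral, Pthlh and Slc18a2 were named after their values were seen. Markers of thalamus, endothelium, meninges and peripheral glia were also examined. Medians in R6/1-vehicle against WT-vehicle were 0.344 for thalamus, -0.25 for endothelium and 0.015 for meninges, and no peripheral glia gene reached 1 FPKM. Values of 1 pathway gene are left out here.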

Additional observations from a re-analysis of the deposited data

How the results depend on the processing

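Alternatives were other pseudocounts, a larger fold, members with at least 1 FPKM, centring on the median gene, values from the other tables of each group and, chosen after seeing the data, no pseudocount. Of 285 recomputed member ratios, 263 kept their side of the fold and 22 crossed it. The sign turned in 3, all within 0.0332 of 0 and none past the fold. They were Nrtn (0.0012 to -0.0021) and Gfra4 (0.0015 to -0.0018) in R6/1-RGFP109 against R6/1-vehicle on centring, and Gfra1 (-0.0332 to 0.0193) in R6/1-RGFP109 against WT-vehicle with the other tables. On a common scale 32 of 32 group levels stayed in place. That was fixed in advance, because the values of a group differed by at most 3.92%. The count of 3 lower members in R6/1-vehicle against WT-vehicle was between 2 and 4 under each alternative. In R6/1-RGFP109 against R6/1-vehicle the count of 0 became 1 (Gfra2) with a pseudocount of 0.01 or with the other tables, and 2 (Gfra2 and Gfra3) with none. In WT-RGFP109 against WT-vehicle the count of 1 (Gfra3) became 0 with pseudocounts of 0.5 and 1, with a log2 ratio above 1 and with members of at least 1 FPKM. In R6/1-RGFP109 against WT-RGFP109 the count of 4 became 2 with a log2 ratio above 1 and with members of at least 1 FPKM. In R6/1-RGFP109 against WT-vehicle 3 became 1 with a log2 ratio above 1, and in WT-RGFP109 against R6/1-vehicle 4 became 2 with that fold and with a pseudocount of 1. Background shares over all genes were 6.09% for RGFP109 in R6/1 mice and 8.53% in WT mice, over 1.5 times the shares of genes with at least 1 FPKM.

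No paired analysis was possible because the tables hold 1 value per group, carry no replicate numbers and gave no test here. For the same reason no library was left out. FPKM values per mouse in the study's supplement, which lists Nrtn, Gfra2 and Gdnf, were not used here. Without depth, values such as those of Gfra3, Artn, Ret and Gdnf have no stated precision.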
